A study of Arabidopsis thaliana with 27 samples.

Results

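The data concern how the change of transcript abundance at 27 °C relative to 25 °C differed between Arabidopsis thaliana seeds at the bent embryo stage and seeds at the heart embryo stage. For each locus this difference, the interaction, is the log2 change at 27 °C over 25 °C in bent seeds minus the same log2 change in heart seeds. A positive interaction means that a locus moved further up, or less far down, in bent seeds. It was computed for 12 of the 27 libraries of the series and for 20988 of 27587 loci, those with at least 10 counts in at least 3 of the 12 libraries.

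Whole seeds of the Columbia-0 wild type (Col-0, no mutation or transgene) were pooled, at least 50 per library, and their messenger RNA was sequenced. The 4 groups were bent seeds at 27 °C (a day of 28 °C and a night of 26 °C), bent seeds at 25 °C (a day of 26 °C and a night of 24 °C), heart seeds at 27 °C and heart seeds at 25 °C, with 3 libraries in each. The plants of these 4 groups were moved to 27 °C or 25 °C once they began to flower, so their seeds developed at one of these regimes, and no 23 °C library (a day of 24 °C and a night of 22 °C) entered the comparison. The study's methods speak of biological replicates for RNA, in a sentence on dried seeds, and neither they nor the labels say whether replicates came from separate plants, so p-values measure the spread between these libraries.

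At the heart stage the embryo forms its cotyledons, the endosperm is still large and the seed coat differentiates. At the bent stage the embryo fills the seed, and storage proteins and oil accumulate under the LEC1, LEC2, FUS3 and ABI3 group of regulators. The epidermal layer of the seed coat secretes mucilage, an inner layer makes proanthocyanidins, and late in development the coat is sealed by suberin, a polyester of long fatty acids and glycerol that also lines root endodermis. Heat shock proteins, induced by heat shock factors, are chaperones that hold or refold other proteins and are also made late in seed maturation.

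Total counts of the 12 libraries ranged from 17227595 to 19091131, and replicates of a group correlated with r between 0.9778 and 0.9921 across loci on the log scale. In a principal component analysis of the 2000 most variable loci, the first component (76.8% of variance) placed heart seeds at 27 °C at 38.9 to 57.0, between bent seeds (-101.2 to -49.8) and heart seeds at 25 °C (99.9 to 113.9). The second component (12.4%) placed bent seeds at 27 °C at -41.0 to -31.7, against 37.9 to 49.7 for bent seeds at 25 °C. Pollen markers, a check for tissue that is not seed, summed to 212 to 380 normalised counts (counts divided by the size factor of the library) in bent seeds at 27 °C, against 320 to 365 in bent seeds at 25 °C. They summed to 488 to 679 in heart seeds at 27 °C, against 561 to 2405 in heart seeds at 25 °C, where they ranged most widely between libraries. Of the 12 tested pollen markers 0 had a called interaction by DESeq2 or edgeR, although the median interaction was 1.05 and 11 values were above 0. Among them 3 had an unadjusted p under 0.05, all above 0. When replicate 3 of the 25 °C heart group, the library with the lowest sum, was left out, 6 had a positive call.

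The interaction was called (DESeq2, Benjamini-Hochberg adjusted p under 0.05) at 1382 loci in the positive direction, 6.59% of those tested, and at 2188 loci in the negative direction, 10.4%. Over all loci tested the median interaction was -0.00756. Positive calls had a median size of 0.81 on the log2 scale and negative calls 0.65, and 582 and 686 of them reached 1, a doubling of one change relative to the other. By edgeR's quasi-likelihood test, 1285 positive (6.12%) and 2246 negative loci (10.7%) were called. Within a stage, 27 °C against 25 °C raised 2739 loci (13.1%) and lowered 3439 (16.4%) in bent seeds, and raised 2849 (13.6%) and lowered 2446 (11.7%) in heart seeds. Scaling counts to library totals moved the median heart change to 0.0399. Higher loci then made up 65.5% of the heart calls, against 53.8% with median-of-ratios scaling. The same scaling to totals gave 1184 positive and 2629 negative interactions, with a median of -0.0547 over all loci. Positive ones then made up 31.1% of the called interactions, against 38.7% with median-of-ratios scaling.

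Positive interactions mostly came from changes called at 1 stage. Among the 1382 loci, 579 rose in bent seeds and were not called in heart seeds, 422 fell in heart seeds and were not called in bent seeds, and 142 rose in bent seeds and fell in heart seeds. Among the 2188 negative loci, 877 fell in bent seeds and were not called in heart seeds, 731 rose in heart seeds and were not called in bent seeds, and 355 fell in bent seeds and rose in heart seeds. Rises at both stages accounted for 134 positive and 106 negative loci.

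**Figure D1:**
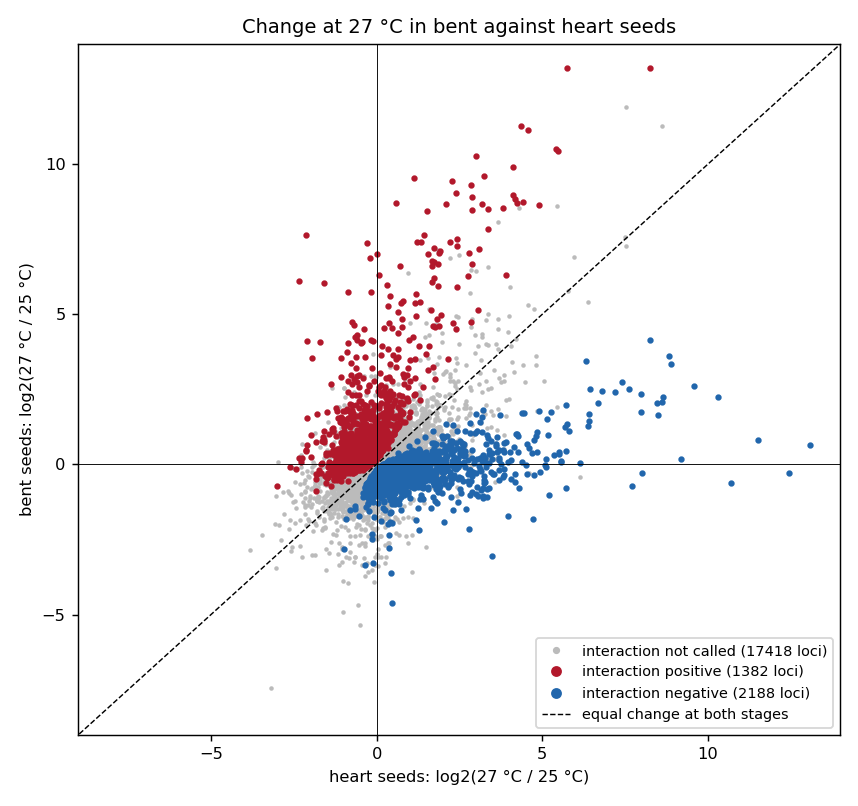
Log2 change at 27 °C over 25 °C of each tested locus in bent seeds (vertical axis) against heart seeds (horizontal axis), with positive interactions in red, negative interactions in blue and the remaining loci in grey; the dashed line marks equal change, and 1 locus lies outside the axes. The 1382 red points lie above the line, many of them close to a heart change of 0, and the 2188 blue points lie below it, many close to a bent change of 0.

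Suberin genes had mostly positive interactions. Of 20 members 17 were tested, 12 were positive and 0 negative by DESeq2 and by edgeR (2 negative at an unadjusted p under 0.05, and 1 called negative in a fit of all 27 libraries), with a median of 2.90. In bent seeds 15 of the 17 rose, with a median log2 change of 4.40, and in heart seeds 12 rose, with a median of 1.55. MYB9 (AT5G16770, chr5:5514717-5517153 in TAIR10.1), a transcription factor of suberin synthesis in the seed coat, had 1208, 582 and 1167 normalised counts in bent seeds at 27 °C, against 0.994, 1.00 and 2.02 in bent seeds at 25 °C. It had 64.2, 94.7 and 53.1 in heart seeds at 27 °C, against 27.4, 33.6 and 35.5 in heart seeds at 25 °C. The groups did not overlap at either stage, and bent seeds at 25 °C were the lowest of the 4 groups. That lowest group held 4 counts in all, and the 734-fold ratio in bent seeds has an exact 95% interval of 287 to 2697. Such intervals cover counting error only. The heart log2 change was 1.14 and the interaction 8.39 ± 0.84 (SE, DESeq2 adjusted p = 3.9e-21).

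CYP86A1 (AT5G58860, chr5:23765791-23768111), the omega-hydroxylase that makes long-chain hydroxy fatty acids for suberin, had 1199, 772 and 1427 normalised counts in bent seeds at 27 °C, against 3.98, 10 and 6.05 in bent seeds at 25 °C. In heart seeds it had 83.6, 120 and 82.0 at 27 °C, against 40.6, 43.4 and 29.7 at 25 °C, and its interaction was 6.08 ± 0.49 (SE, DESeq2 adjusted p = 4.71e-33). Bent seeds at 25 °C again lay below both heart groups, and bent seeds at 27 °C far above them. GPAT5 (AT3G11430), the acyltransferase that joins these acids to glycerol, had 781, 425 and 889 in bent seeds at 27 °C, against 2.98, 3.01 and 9.08 in bent seeds at 25 °C. Its heart libraries held 50.9, 89.1 and 53.1 at 27 °C, against 19.8, 15.8 and 15.3 at 25 °C, with an interaction of 5.20 ± 0.60 (SE, DESeq2 adjusted p = 6.42e-16). ABCG6 (AT5G13580), a transporter needed for suberin deposition, had 1305, 603 and 1198 in bent seeds at 27 °C, against 10.9, 8.03 and 11.1 in bent seeds at 25 °C.

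In heart seeds ABCG6 had 104, 204 and 113 at 27 °C, against 48.2, 34.6 and 34.5 at 25 °C (interaction 4.85). FAR5, FAR4 and FAR1, reductases that make the primary fatty alcohols of suberin, had interactions of 5.92, 3.47 and 3.14, and FACT and RWP1, which attach caffeate and ferulate, 4.41 and 2.90. The elongases KCS2 and KCS20 stood at 0.85 and 0.51 and the hydroxylase CYP86B1 at 1.58, all called positive. In each of these suberin genes the lowest of the 27 °C bent libraries was replicate 2, which was also the lowest for the summed storage proteins (159437, against 268448 and 325282 in the other replicates).

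The exceptions were transporters and regulators. ABCG2 and ABCG20 rose strongly at both stages (log2 3.71 in bent and 2.97 in heart seeds, and 4.40 in bent and 3.98 in heart seeds), with interactions of 0.74 and 0.42 that were not called. MYB107, a regulator of seed coat suberin, had 850, 538 and 628 in bent seeds at 27 °C, against 352, 173 and 107 in bent seeds at 25 °C. In heart seeds it had 93.7, 124 and 90.4 at 27 °C, against 17, 9.87 and 4.79 at 25 °C, and its interaction of -1.60 ± 0.71 (SE) missed the threshold (DESeq2 adjusted p = 0.111). MYB53 and MYB92 stood at 0.09 and -1.30 and were not called.

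At 23 °C, in libraries outside the comparison, all 17 tested members were higher in mature than in bent seeds, with a median log2 difference of 3.96. MYB9 averaged 41.0, 25.7 and 1370 normalised counts in heart, bent and mature seeds at 23 °C, 29.0, 1.19 and 1504 at 25 °C, and 63.6, 877 and 1242 at 27 °C. On that scale of all 27 libraries bent seeds at 27 °C held MYB9 at 521 to 1074, and mature seeds at 23 °C at 1067 to 1558. CYP86A1 averaged 8.70 in bent and 622 in mature seeds at 23 °C, and 1008 in bent and 2550 in mature seeds at 27 °C. In whole seeds, more cells of a type and more RNA per cell cannot be told apart.

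**Figure D2:**
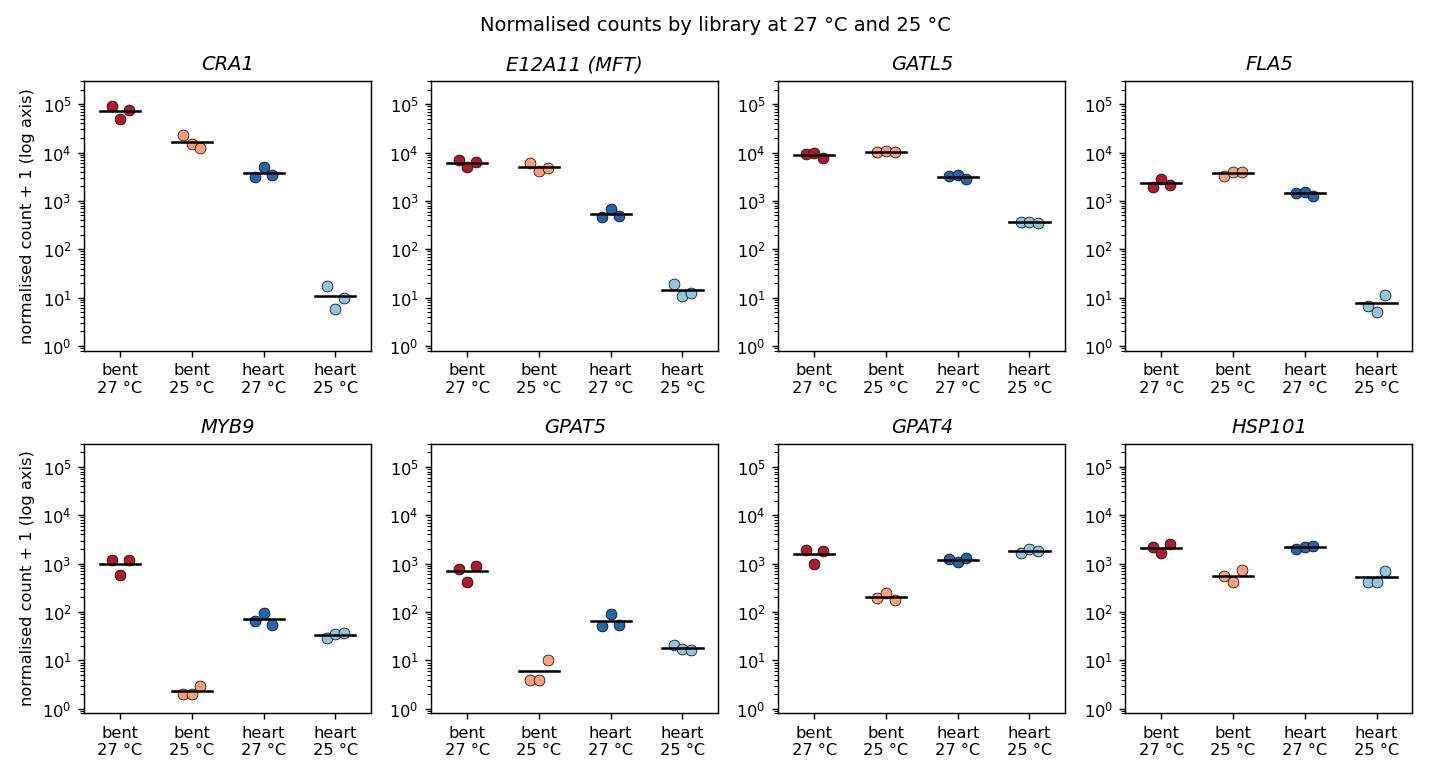
Normalised counts plus 1 (log axis) of 8 genes in each library of the 4 groups, with points for libraries and lines for group means. CRA1, E12A11 (MFT), GATL5 and FLA5 are lowest in heart seeds at 25 °C, MYB9 and GPAT5 are lowest in bent seeds at 25 °C and highest in bent seeds at 27 °C, GPAT4 is lowest in bent seeds at 25 °C, and HSP101 is higher at 27 °C at both stages.

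Cutin is the related polyester of the outer surface. Of 14 members 13 were tested, and 9 had a positive and 0 a negative interaction by DESeq2 (8 and 0 by edgeR, 11 and 0 at an unadjusted p under 0.05), with a median of 0.84. In bent seeds 6 members rose and 1 fell, and in heart seeds 8 fell. GPAT4 (AT1G01610, chr1:221642-224351), a glycerol acyltransferase of cutin synthesis, had 1946, 980 and 1797 normalised counts in bent seeds at 27 °C, against 189, 245 and 174 in bent seeds at 25 °C. In heart seeds it had 1230, 1101 and 1297 at 27 °C, against 1646, 1985 and 1801 at 25 °C. It therefore rose in bent seeds (log2 2.96) and fell in heart seeds (-0.58), with no overlap of libraries at either stage and an interaction of 3.54 ± 0.29 (SE, DESeq2 adjusted p = 1.01e-30). Its close relative GPAT8 had an interaction of 3.64 on much lower counts, and LACS2, which activates the fatty acids, 2.42.

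The hydroxylases CYP86A8 and CYP86A2 followed with 1.77 and 1.39 and the acyltransferase GPAT6 with 1.33. ABCG11 and ABCG32, transporters of cutin precursors, had small positive interactions of 0.44 and 0.35. PEL3 (DCR), an acyltransferase, fell at both stages by 0.63 and 0.54 on the log2 scale and had no called interaction (-0.09). HTH, an oxidoreductase of cutin synthesis, had a value of 0.82 that was not called.

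Genes of flavonoid and proanthocyanidin synthesis, the brown pigments of the seed coat, also had mostly positive interactions, but through heart seeds. All 19 members were tested, 10 positive and 3 negative (8 and 3 by edgeR), against 6.59% and 10.4% of all loci, with a median of 0.65. In heart seeds 2 rose and 16 fell, against 13.6% and 11.7% of all loci, and in bent seeds 5 fell, against 16.4%. F3H, a flavanone hydroxylase, had 1654, 1507 and 1613 normalised counts in bent seeds at 27 °C, against 1896, 1551 and 1446 in bent seeds at 25 °C. In heart seeds it had 5091, 3617 and 4494 at 27 °C, against 8731, 11874 and 10414 at 25 °C, giving an interaction of 1.2 ± 0.20 (SE, DESeq2 adjusted p = 8.21e-08). DFR, BAN and the regulator TT2, all needed for proanthocyanidins, had interactions of 0.84, 0.65 and 0.90 of the same kind. The count of positive members depended on 1 library: 6 in place of 10 were positive when replicate 2 of the 25 °C heart group was left out, and the calls of DFR and TT2 were among those lost. A fit of all 27 libraries left 4. Without replicate 2 in all 4 groups 4 were positive, and without replicate 3 in all 4 groups 3 were. Pollen transcripts were most abundant in heart seeds at 25 °C as well (561 to 2405), and their part in the lower cutin and flavonoid values of heart seeds at 27 °C was not tested.

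TT10, the laccase that oxidises the pigments late in coat development, went the other way. It had 25437, 25503 and 25173 normalised counts in bent seeds at 27 °C, against 30318, 27936 and 25443 in bent seeds at 25 °C. It had 15165, 19831 and 15881 in heart seeds at 27 °C, against 8206, 4150 and 5817 in heart seeds at 25 °C (interaction -1.62 ± 0.31 SE, DESeq2 adjusted p = 6.74e-06). TT4, chalcone synthase at the entry of the pathway, fell at both stages (log2 -1.05 in bent and -1.28 in heart seeds) with no called interaction.

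Storage protein genes had the lowest median of the lists. All 13 members were tested, 11 were negative and 0 positive by DESeq2 and by edgeR, also at an unadjusted p under 0.05 for the positive side, with a median of -5.10, although transcripts rose with temperature at both stages: the median log2 change was 2.06 in bent seeds, where 9 were called, and 6.67 in heart seeds, where all 13 were called. CRA1 (AT5G44120, chr5:17756238-17758336), the 12S globulin cruciferin A, had 90375, 48732 and 75725 normalised counts in bent seeds at 27 °C, against 23090, 14768 and 12582 in bent seeds at 25 °C. It had 3174, 4993 and 3384 in heart seeds at 27 °C, against 16.1, 4.94 and 8.63 in heart seeds at 25 °C. No libraries overlapped, and the interaction was -6.51 ± 0.61 (SE, DESeq2 adjusted p = 4.9e-24).

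The sign belongs to the log2 scale. In normalised counts CRA1 gained 54797 in bent seeds and 3840 in heart seeds, so the larger fold in heart seeds went with the smaller gain. Such a reversal held for 123 of the 2188 negative loci (5.62%) and for 2 of the 1382 positive loci. SESA3 (AT4G27160), a 2S albumin, had 61771, 27708 and 48958 in bent seeds at 27 °C, against 24552, 9198 and 10308 in bent seeds at 25 °C. Its heart libraries held 1482, 2520 and 1440 at 27 °C, against 13.2, 1.97 and 0 at 25 °C (interaction -6.83 ± 1.31 SE, DESeq2 adjusted p = 5.03e-06). SESA1 to SESA4 lie next to each other and are similar in sequence, so reads shared between them were divided by an estimate. SESA2 stood at -6.21, CRU2 at -5.55 and CRU3 at -5.24, while SESA1 (-1.51) and the cruciferin-like AT1G03890 (0.43) were not called.

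The regions upstream of 2 storage genes are shown because most genes of the list hold motifs known from seed maturation, the RY element before 11 of 13 and the ACGTG core before 9 of 13. The RY element (CATGCA) is bound by the B3 factors FUS3, LEC2 and ABI3, and the core ACGTG of the abscisic acid response element by bZIP factors. Both strands of the 250 bases before the RefSeq start of each gene (TAIR10.1) were searched. CATGCATG holds an RY element on each strand, as CACGTG holds a core on each strand, and each strand counted as 1 match. RY elements and cores on either strand are in capitals, first in SESA3 (chr4:13611546-13611795, plus strand), then in CRA1 (chr5:17758337-17758586, minus strand).
SESA3: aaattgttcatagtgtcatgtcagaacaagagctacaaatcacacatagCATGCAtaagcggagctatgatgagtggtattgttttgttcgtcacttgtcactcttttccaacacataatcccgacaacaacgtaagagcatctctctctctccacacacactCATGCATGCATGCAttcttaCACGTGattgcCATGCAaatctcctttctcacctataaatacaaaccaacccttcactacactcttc
CRA1: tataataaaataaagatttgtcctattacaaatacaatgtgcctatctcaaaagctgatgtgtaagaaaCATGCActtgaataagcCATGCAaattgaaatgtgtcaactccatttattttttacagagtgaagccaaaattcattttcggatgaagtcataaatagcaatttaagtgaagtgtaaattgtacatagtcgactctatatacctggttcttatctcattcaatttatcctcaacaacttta
SESA3 held 7 matches to the RY element and 2 to the core, and CRA1 held 2 and 0. The RY letters were present before 11 of 13 storage protein genes and all 9 oil body genes, against 7.95% of all 20926 loci with a window. They were present before 12.4% of the negative and 8.04% of the positive loci. Before the 17 suberin genes tested, 1 held the RY letters and 5 the ACGTG core, against 23.4% of all loci for the core, and the MYB9 window held neither.

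Oil body proteins, which coat the oil droplets of the seed, followed the storage proteins. All 9 were tested, 7 were negative and 0 positive by both tools (4 negative in a fit of all 27 libraries), with a median of -3.14. OLEO1 (AT4G25140), an oleosin, had 27402, 13974 and 21432 normalised counts in bent seeds at 27 °C, against 18616, 10486 and 13300 in bent seeds at 25 °C. It had 827, 1296 and 812 in heart seeds at 27 °C, against 61.4, 29.6 and 73.8 in heart seeds at 25 °C. The bent groups overlapped and were not called (log2 0.57, DESeq2 adjusted p = 0.267), the heart groups did not overlap, and the interaction was -3.59 ± 0.55 (SE, adjusted p = 2.85e-09). OLEO2, the caleosin ATS1 and the steroleosin HSD1 stood at -3.85, -4.18 and -4.72.

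Among 22 genes of fatty acid and oil synthesis, 16 had a negative and 0 a positive interaction by both tools, mostly small (median -0.46). A fit of all 27 libraries called 5 of them. In bent seeds 2 rose and 13 fell, and in heart seeds 9 rose and 2 fell. KCS18 (FAE1, AT4G34520), the elongase that makes the very long fatty acids of seed oil, had the most negative value. It had 3400, 2340 and 2597 in bent seeds at 27 °C, against 3936, 2546 and 3748 in bent seeds at 25 °C. It had 156, 194 and 147 in heart seeds at 27 °C, against 0.944, 0 and 0.959 in heart seeds at 25 °C. Its heart ratio of 258 rests on 2 counts at 25 °C and has an exact 95% interval of 71.2 to 2140. SUS2, a sucrose synthase of filling seeds, stood at -2.74, the carboxylase subunit BCCP2 at -1.04 and the triacylglycerol synthase TAG1 (DGAT1) at -0.65, while the desaturases FAD2 (-0.10) and FAD3 (0.29) were not called.

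Of the 17 regulators of maturation, transcription factors listed together with the dormancy gene DOG1, 8 had a negative and 0 a positive interaction by both tools, with a median of -0.41. FUS3 (AT3G26790) had 4342, 3601 and 3953 normalised counts in bent seeds at 27 °C, against 3955, 3150 and 3681 in bent seeds at 25 °C. It had 934, 1137 and 906 in heart seeds at 27 °C, against 352, 226 and 335 in heart seeds at 25 °C (interaction -1.56 ± 0.21 SE, DESeq2 adjusted p = 7.64e-12). The bent groups overlapped and the heart groups did not. ABI3 (-1.14), NF-YB6 (LEC1-LIKE, -1.70) and EEL (-1.61) fell in bent seeds and rose in heart seeds, whereas DPBF2 (bZIP67, -1.69) rose at both stages. LEC1 (-0.16), LEC2 (-0.37) and ABI5 (-0.23) were not called. DOG1, the main dormancy gene, rose at both stages (log2 2.02 in bent and 1.28 in heart seeds) with an interaction of 0.74 that was not called.

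Mucilage genes of the seed coat epidermis were negative as well: all 17 were tested, 10 were negative and 0 positive by both tools (1 positive at an unadjusted p under 0.05), with a median of -0.83. In bent seeds 1 rose and 8 fell, and in heart seeds 9 rose and 1 fell. GATL5 (AT1G02720, chr1:591682-594264), a glycosyltransferase that shapes mucilage pectin, had 9189, 9949 and 7864 normalised counts in bent seeds at 27 °C, against 10242, 10893 and 10261 in bent seeds at 25 °C. It had 3290, 3369 and 2828 in heart seeds at 27 °C, against 367, 360 and 343 in heart seeds at 25 °C. The interaction of -3.36 ± 0.14 (SE, DESeq2 adjusted p = 9.53e-130) had one of the smaller errors, the bent change (log2 -0.22) was not called, and heart groups did not overlap. MUM4, the rhamnose synthase that supplies mucilage pectin, had 11043, 14796 and 12198 in bent seeds at 27 °C, against 17362, 19494 and 20389 in bent seeds at 25 °C.

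MUM4 had 8858, 9940 and 8807 in heart seeds at 27 °C, against 3865, 2337 and 2309 in heart seeds at 25 °C, so it fell at one stage and rose at the other (interaction -2.29). The galactosidase MUM2 (-1.72), the methylesterase inhibitor PMEI6 (AT2G47670, -2.58), the cellulose synthase CESA5 (-0.83) and the regulator GL2 (-0.76) were also negative. MYB61, MYB5, BXL1 and GAUT11 were not called.

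**Figure D3:**
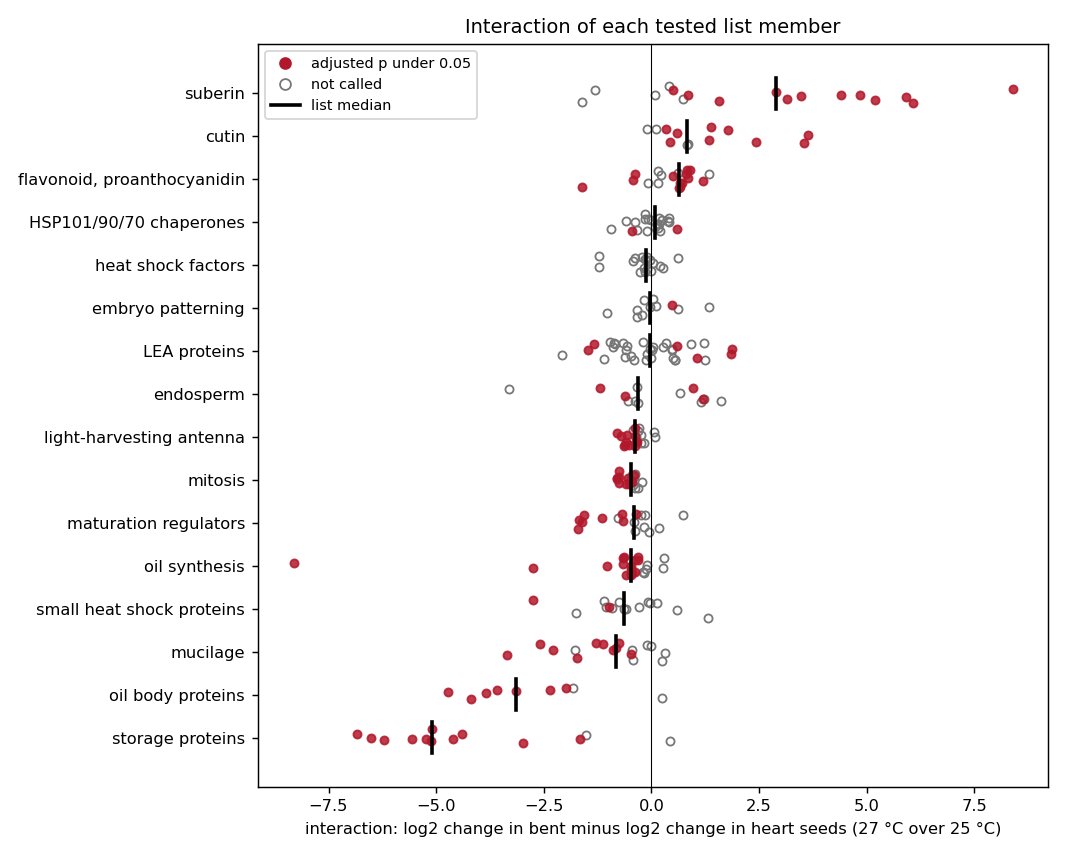
Interaction of each tested member of 16 gene lists, with filled red points for members with an adjusted p under 0.05, open points for the others and a black bar for the list median; points are spread vertically at random within a row. Suberin (median 2.90) and cutin (0.84) lie to the right of 0, storage proteins (-5.10) and oil body proteins (-3.14) to the left, and chaperones and heat shock factors lie around 0. The chaperone row also holds co-chaperones and heat acclimation genes.

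Most small heat shock proteins rose at both stages, as did most of a list of HSP101, HSP90 and HSP70 chaperones, co-chaperones and heat acclimation genes. An interaction was called for 2 of the 15 small heat shock proteins tested, near the 17% of all loci. In the other list 1 positive and 1 negative interaction were called among 21 tested genes, against 6.59% and 10.4% of all loci. Of 15 small heat shock proteins tested (16 members), 11 rose in bent and 12 in heart seeds, 2 had a negative interaction and 0 a positive one by both tools, with 0 above 0 at an unadjusted p under 0.05. HSP17.6II (AT5G12020), a cytosolic class II protein, had 164, 197 and 202 normalised counts in bent seeds at 27 °C, against 49.7, 40.1 and 81.7 in bent seeds at 25 °C. It had 107, 173 and 123 in heart seeds at 27 °C, against 2.83, 2.96 and 12.5 in heart seeds at 25 °C (interaction -2.75 ± 0.54 SE, DESeq2 adjusted p = 1.1e-05). The count of negative members depended on single libraries: 8 in place of 2 were negative when replicate 3 of the 25 °C heart group was left out, while 1 was when replicate 3 of bent seeds at 25 °C, replicate 1 or 2 of bent seeds at 27 °C, or replicate 2 of heart seeds at either temperature was. The median over the list was -0.63, and 12 of 15 values were below 0.

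HSP101 (AT1G74310), the disaggregase of thermotolerance, had 2220, 1679 and 2531 normalised counts in bent seeds at 27 °C, against 547, 409 and 739 in bent seeds at 25 °C. It had 1956, 2223 and 2280 in heart seeds at 27 °C, against 425, 412 and 709 in heart seeds at 25 °C. Its interaction was -0.14 ± 0.41 (SE, DESeq2 adjusted p = 0.887), which does not show that the stages responded alike. HSFA2, the heat-induced factor that prolongs the response, had 245, 185 and 372 in bent seeds at 27 °C, against 18.9, 9.03 and 38.3 in bent seeds at 25 °C, and 280, 317 and 298 in heart seeds at 27 °C, against 7.56, 5.92 and 18.2 in heart seeds at 25 °C. Its interaction of -1.22 ± 0.60 (SE) was not called (adjusted p = 0.16).

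Among 18 heat shock factors tested (21 members) 6 rose in bent and 4 in heart seeds, against 13.1% and 13.6% of all loci. By DESeq2 or by edgeR 0 had a called interaction (1 below 0 at an unadjusted p under 0.05), against 17% of all loci by DESeq2. Of the 18 values 14 were below 0, with a median of -0.13. Without replicate 2 of bent seeds at 25 °C 2 factors were called negative, and 1 was when replicate 3 of the 25 °C heart group was left out. In the list of HSP101, HSP90 and HSP70 chaperones, co-chaperones and heat acclimation genes, 21 of 22 members were tested. Of these 16 rose in bent and 15 in heart seeds, with a median interaction of 0.08. Hsp81.4 (0.60) and HSC70-1 (-0.45) passed the threshold in DESeq2 and neither did in edgeR. In the endoplasmic reticulum list 1 of 11 was positive (CRT1a, a calreticulin, 0.34) and 1 negative, against 6.59% and 10.4% of all loci. BIP3, an inducible luminal chaperone and the negative one, fell in bent seeds, with 15.1, 27.2 and 28.2 at 27 °C against 63.6, 147 and 52.5 at 25 °C. BIP3 rose in heart seeds, with 32.6, 45.0 and 36.3 at 27 °C against 15.1, 7.90 and 4.79 at 25 °C (interaction -3.93 ± 0.69 SE, DESeq2 adjusted p = 4.5e-07). BIP1 (0.31) and BIP2 (0.25), its abundant relatives, were not called.

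Photosynthesis and cell division genes had small negative interactions that ran through bent seeds. Of 40 photosystem subunits tested (41 members) 26 were negative and 0 positive (24 and 0 by edgeR, 3 negative in a fit of all 27 libraries), with a median of -0.43, and 31 fell in bent and 2 in heart seeds. Of 21 light-harvesting antenna genes 12 were negative (9 by edgeR, 2 in the fit of all 27 libraries), with a median of -0.37, and 15 fell in bent and 1 in heart seeds. PSAE-1, a photosystem I subunit, had 2755, 2679 and 2505 in bent seeds at 27 °C, against 4014, 3667 and 3877 in bent seeds at 25 °C, and 2747, 2281 and 2503 in heart seeds at 27 °C, against 2419, 2375 and 2305 in heart seeds at 25 °C. CAB1 (-0.62), CAB2 (-0.64) and CAB3 (-0.80) are near-identical neighbours, and the division of reads between them is uncertain. The call of CAB2 was not shared by edgeR (adjusted p = 0.0862).

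All 18 mitotic genes had an interaction below 0 (median -0.47), and 10 were called, 8 by edgeR and 2 in the fit of all 27 libraries. CDKB2;1, a kinase of the G2 to M transition, had 741, 809 and 727 in bent seeds at 27 °C, against 916, 1026 and 1036 in bent seeds at 25 °C. It had 772, 865 and 711 in heart seeds at 27 °C, against 635, 529 and 616 in heart seeds at 25 °C (interaction -0.79 ± 0.14 SE, DESeq2 adjusted p = 1.25e-06). In the list 10 fell in bent seeds and 4 rose in heart seeds. Of 325 ribosomal protein genes tested (342 members) 8 were positive and 36 negative (3 and 3 in the fit of all 27 libraries), a negative share near the 10.4% of all loci, and the median was 0.01. The positive ones numbered 13 without replicate 1 of heart seeds at 25 °C and 5 without replicate 2 or 3 of bent seeds at 27 °C, replicate 3 of heart seeds at 25 °C or any 1 library of heart seeds at 27 °C. Of 42 core histone genes 1 was positive and 2 were negative, against 6.59% and 10.4% of all loci, with 29 lower in bent and 28 lower in heart seeds. With 1 library left out the positive count was 0 in 7 of 12 fits and the negative count 0 or 1 in 10.

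Markers of endosperm were called in both directions, 4 of 13 tested (14 members) against 17% of all loci. MEA (1.19) and FWA (0.97) were positive, and ALE1 (-1.19) and ICE1 (-0.61), which act in the breakdown of the endosperm and the embryo surface, were negative. The call of FWA was not shared by edgeR (adjusted p = 0.0701) and was lost without replicate 1 of bent seeds at 25 °C, replicate 2 or 3 of bent seeds at 27 °C or replicate 2 of heart seeds at 27 °C. Of 11 embryo patterning genes tested (12 members) only ATML1, an epidermal homeodomain factor, was called (0.48). The embryo markers summed to 9744 to 10710 in bent seeds at 27 °C, against 10868 to 11479 in bent seeds at 25 °C, and to 5411 to 5742 in heart seeds at 27 °C, against 6371 to 7115 in heart seeds at 25 °C. The endosperm markers summed to 13007 to 14264 in bent seeds at 27 °C, against 15122 to 15806 in bent seeds at 25 °C, and to 11126 to 11522 in heart seeds at 27 °C, against 9683 to 10430 in heart seeds at 25 °C. The endosperm sum was thus lower at 27 °C in bent seeds and higher in heart seeds, without overlap, the direction of a negative interaction. ICE1, itself called negative, was the largest member of this sum. On the scale of all 27 libraries ICE1 averaged 3838 in heart seeds at 25 °C and 5522 at 27 °C. Of the 13 tested members 3 were called higher and 2 lower in heart seeds. Only 5 of the 13 had a heart change above 0, so most did not share the rise of the sum. The embryo sum was lower at 27 °C at both stages. The part of tissue proportions in the interactions was not tested.

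In abscisic acid metabolism 1 of 10 genes tested was called, against 17% of all loci. NCED9 (AT1G78390, chr1:29490705-29492875), which cleaves carotenoids in the limiting step of abscisic acid synthesis in seeds, had 1127, 1522 and 1283 in bent seeds at 27 °C, against 1765, 1492 and 2250 in bent seeds at 25 °C. It had 528, 722 and 581 in heart seeds at 27 °C, against 77.4, 11.8 and 21.1 in heart seeds at 25 °C (interaction -4.54 ± 0.76 SE, DESeq2 adjusted p = 9.81e-08). Among 12 clock genes tested LHY was positive (0.64), rising at both stages, and ELF4 and ELF3 were negative (-0.58 and -0.27). With 1 library left out at a time, the call of ELF4 was lost in 5 and that of ELF3 in 10 of 12 fits. SAG29 (SWEET15), a sucrose exporter that feeds the embryo, rose at both stages with an interaction of -1.32. It was 1 of 2 called among 8 genes of sugar supply tested, beside STS (0.60), against the same 17% of all loci.

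The largest positive interactions at loci whose mean reached 10 in each of the 4 groups included several genes annotated to cell wall and lipids. AT4G38080 (chr4:17882644-17883612), annotated as a hydroxyproline-rich glycoprotein, had 6826, 3354 and 6408 in bent seeds at 27 °C, against 14.9, 8.03 and 24.2 in bent seeds at 25 °C. It had 358, 537 and 369 in heart seeds at 27 °C, against 55.7, 61.2 and 53.7 in heart seeds at 25 °C (interaction 5.57 ± 0.53 SE, DESeq2 adjusted p = 2.36e-23). PELPK1, a repetitive wall protein, had 19910, 9501 and 19511 in bent seeds at 27 °C, against 87.5, 73.3 and 110 in bent seeds at 25 °C (interaction 5.08). Bent seeds at 25 °C held the lowest values of both genes.

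The GDSL-type lipase AT1G74460 (5.11), the wax ester synthase-like AT5G12420 (5.03), the cytochrome P450 CYP78A9 (4.92), the extensin-family AT4G17215 (4.90) and the folate enzyme FOLB3 (4.66) completed this set with ABCG6. At loci near 0 in some group, KIN1, a cold- and abscisic acid-induced protein, had 348, 265 and 548 in bent seeds at 27 °C, against 3.98, 1.00 and 2.02 in bent seeds at 25 °C, a ratio of 165 (exact 95% interval 79.7 to 411). In heart seeds no change of KIN1 was called, with 9.17, 8.44 and 9.32 at 27 °C against 13.2, 12.8 and 6.71 at 25 °C. Its neighbour KIN2 is similar in sequence, which leaves the division of reads uncertain. The esterase AT5G37690 had 1825, 1028 and 2075 in bent seeds at 27 °C, against 0, 1.00 and 3.03 in bent seeds at 25 °C.

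AT3G04170, a cupin, had 0 counts in all 6 libraries at 25 °C. It was at least 577-fold higher in bent seeds and at least 3.21-fold higher in heart seeds at 27 °C, against a floor of 3 counts over the group. DESeq2 called its interaction of 7.43 and edgeR did not (adjusted p = 1), and with 0 in both 25 °C groups the 2 changes cannot be compared. Of the loci that rose in bent and fell in heart seeds, AT2G43670, a carbohydrate-binding protein, had 452, 222 and 389 in bent seeds at 27 °C, against 5.96, 6.02 and 8.07 in bent seeds at 25 °C. In heart seeds AT2G43670 had 153, 146 and 173 at 27 °C, against 246, 389 and 222 at 25 °C (interaction 6.59 ± 0.50 SE, DESeq2 adjusted p = 1.55e-36).

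The most negative interactions came from loci that were low in heart seeds at 25 °C and higher in the other 3 groups. FLA5 (AT4G31370, chr4:15223655-15224685), a fasciclin-like arabinogalactan protein of the cell wall, had 1924, 2895 and 2082 in bent seeds at 27 °C, against 3244, 3993 and 3967 in bent seeds at 25 °C. It had 1474, 1500 and 1291 in heart seeds at 27 °C, against 5.67, 3.95 and 10.5 in heart seeds at 25 °C (interaction -8.42 ± 0.38 SE, DESeq2 adjusted p = 7.28e-105). It therefore fell in bent and rose in heart seeds, as did the receptor-like protein RLP55. RLP55 had 4643, 5475 and 3744 in bent seeds at 27 °C, against 6868, 7605 and 6685 in bent seeds at 25 °C, and 1801, 1626 and 1382 in heart seeds at 27 °C, against 0.944, 0 and 1.92 in heart seeds at 25 °C.

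The heart ratio of RLP55 was 1658, with an exact 95% interval of 567 to 8044 from 3 counts at 25 °C. AT1G62070 and AT1G62080 are uncharacterised loci close together on chromosome 1. The ratio of AT1G62070 in heart seeds was 5559 (1902 to 26961), and AT1G62080 had 7459, 10881 and 7506 in heart seeds at 27 °C, against 97.3, 18.8 and 35.5 in heart seeds at 25 °C. AT1G62220 had 0 counts in heart seeds at 25 °C and was at least 507-fold higher at 27 °C, with 17142, 9487 and 11714 in bent seeds at 27 °C, against 11076, 8172 and 5291 in bent seeds at 25 °C.

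E12A11 (AT1G18100), the gene MOTHER OF FT AND TFL1 that acts in germination, had 7029, 5057 and 6427 normalised counts in bent seeds at 27 °C, against 5941, 4057 and 4832 in bent seeds at 25 °C. It had 455, 666 and 492 in heart seeds at 27 °C, against 17.9, 9.87 and 11.5 in heart seeds at 25 °C (interaction -5.03 ± 0.33 SE, DESeq2 adjusted p = 7.23e-48). EPR1, an extensin of the endosperm, had 118396, 78959 and 97640 in bent seeds at 27 °C, against 86246, 59714 and 70061 in bent seeds at 25 °C, and 10709, 12013 and 9911 in heart seeds at 27 °C, against 321, 141 and 157 in heart seeds at 25 °C. The bent groups of both genes overlapped and their heart groups did not. The dirigent-like AT4G11180 (-6.55), AT1G02570 (-6.49), the pectin acetylesterase AT1G09550 (-6.22) and the peroxidase AT5G15180 (-4.41) were also lowest in heart seeds at 25 °C, where replicate 1 was the highest of the 3 libraries for each of these 4.

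**Figure D4:**
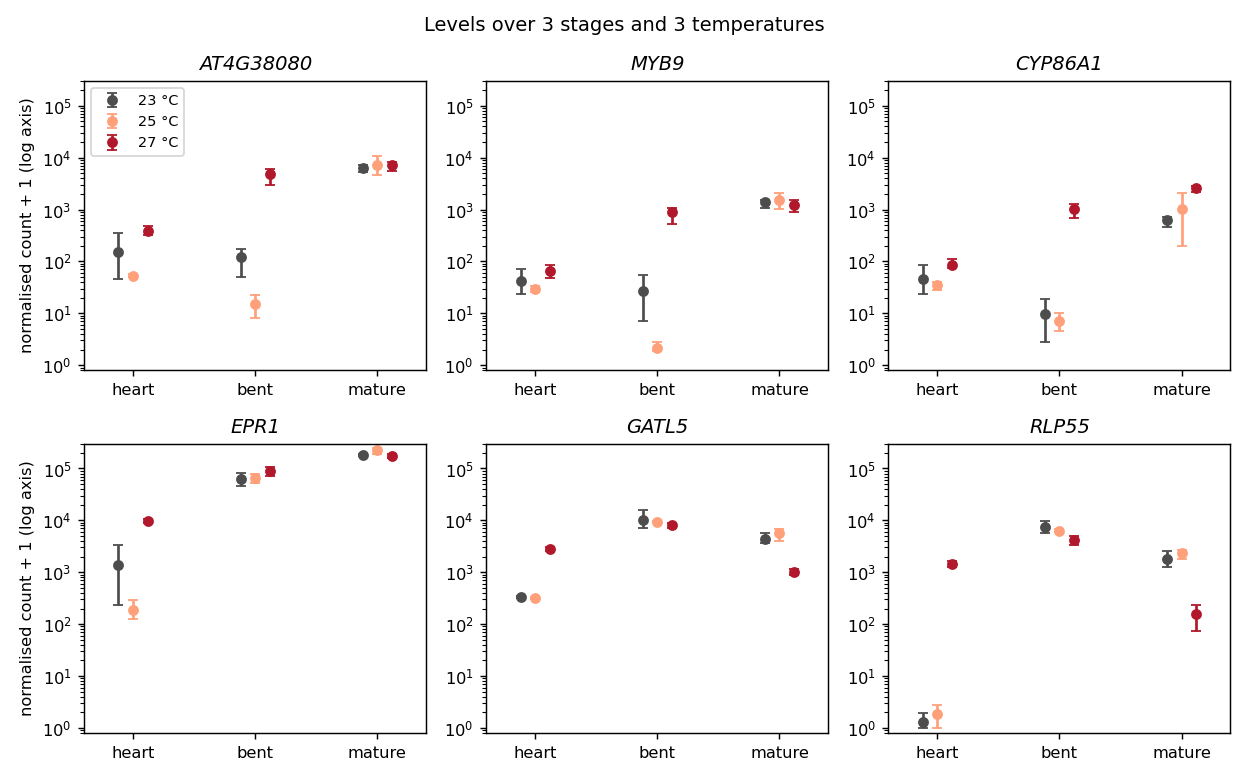
Mean normalised counts plus 1 (log axis) of 6 genes at the heart, bent and mature stages at 23, 25 and 27 °C, with bars from the lowest to the highest of 3 libraries. In bent seeds AT4G38080, MYB9 and CYP86A1 average 4921, 877 and 1008 at 27 °C, far above bent seeds at 23 and 25 °C, and in heart seeds EPR1, GATL5 and RLP55 average 9791, 2847 and 1443 at 27 °C, above heart seeds at 23 and 25 °C and below bent seeds at 27 °C.

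At 23 °C, in libraries that the interaction did not use, the called loci also differed between stages. Of the 2188 negative loci 94.7% were higher in bent than in heart seeds at 23 °C, with a median log2 difference of 1.04. Of the 1382 positive loci 13.2% were, with a median of -0.75, and of the 17418 remaining loci 46.1% were, with a median of -0.04. Positive loci that rose in bent seeds and were not called in heart seeds were mostly higher in mature than in bent seeds at 23 °C (75.3%, median 0.54), against 48.3% of the remaining loci. Negative loci that fell in bent seeds and were not called in heart seeds were mostly lower there, 21.7% being higher in mature seeds. These are descriptions of loci chosen by the interaction, with no test.

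Of the libraries that stood apart, replicate 1 of heart seeds at 23 °C had storage transcripts far above its replicates, and when it was left out the share of negative loci higher in bent seeds was again 94.7% and that of positive loci 16.3%. Leaving out replicate 3 of the 23 °C bent group gave 93.9% and 12%. That heart library moved the bent over heart median of several lists, which for storage proteins was 6.54 without it and 2.21 with it, for oil body proteins 6.77 and 3.97, for maturation regulators 1.63 and 0.99, and for suberin genes 0.07 and -0.52.

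GATL5 averaged 326, 10357 and 4405 normalised counts in heart, bent and mature seeds at 23 °C, 322, 9320 and 5709 at 25 °C, and 2847, 8017 and 1016 at 27 °C. RLP55 averaged 0.305, 7482 and 1773 at 23 °C, 0.861, 6281 and 2361 at 25 °C, and 1443, 4116 and 157 at 27 °C. Both were higher at 27 °C in heart seeds and lower at 27 °C in mature seeds than at either other temperature, with no overlap between libraries.

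**Figure D5:**
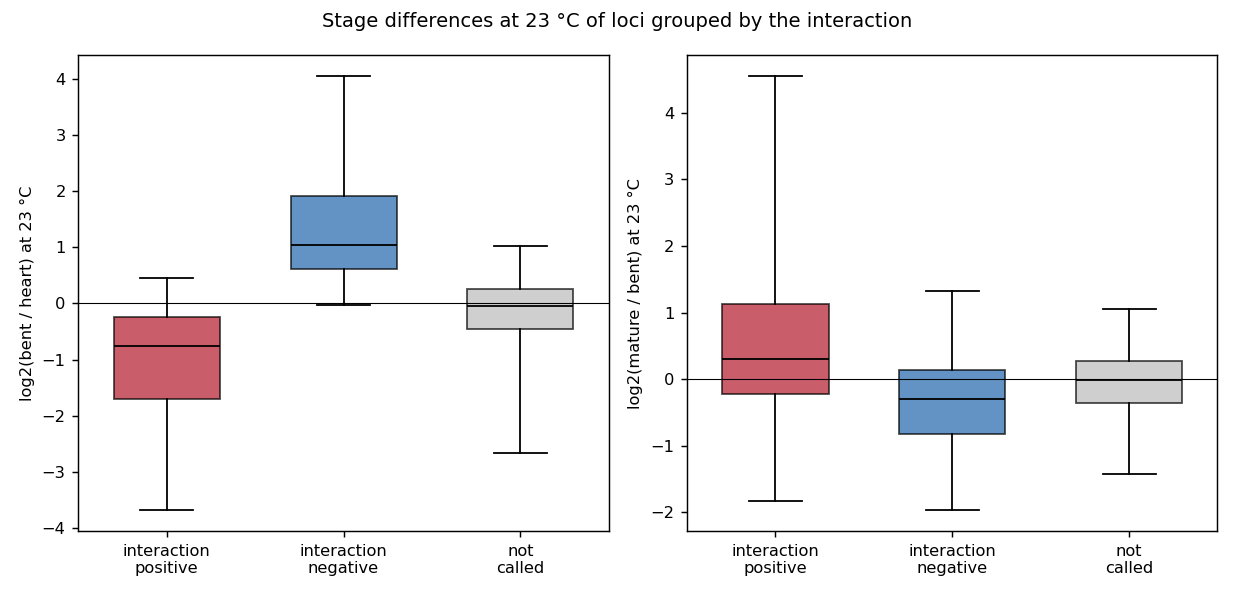
Log2 difference of bent over heart seeds (left) and of mature over bent seeds (right) at 23 °C for loci with a positive, negative or no called interaction; boxes span the quartiles with the median as a line, and whiskers run from the 5th to the 95th percentile. Positive loci lie mostly below 0 in the left panel (median -0.75) and negative loci above it (median 1.04), while the other loci lie around 0.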

How the data were processed

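Whole-seed messenger RNA of Col-0 was sequenced by the authors, and reads were assigned with Salmon to Araport11 transcripts. The deposited values are estimated counts per transcript, not normalised, with replicates kept apart. Reads shared by similar copies are divided by an estimate, and use of the strand is not given in the sources used here. All columns belonged to listed samples (0 left unused).

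Estimated counts were summed per locus and rounded. Loci with at least 10 counts in at least 3 of the 12 libraries were fitted in DESeq2 1.42.0 (R 4.3.3), the test the study states, as 4 groups without covariates and with median-of-ratios scaling. The interaction and both stage effects are two-sided Wald tests at an adjusted p of 0.05 over all loci, and 5 loci had a withheld adjusted p. edgeR 4.0.16 was the main alternative. Scripts were tested on simulated data. Fold changes against groups with few reads are given as ratios of counts with exact intervals, or as bounds against 3 counts, and cover counting error only.

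Names, positions and upstream sequences came from RefSeq (TAIR10.1), in which 27392 of 27587 loci were found. Araport11 annotates the same assembly. Members and gene lists were chosen with earlier results of these data known, so their counts are descriptions. Named loci were, per direction, the 8 largest called by both tools with a mean of at least 10 in each group and 100 over the 12 libraries, the 4 largest with a group mean under 10, the 3 largest with opposite calls at the 2 stages, and up to 4 called members per list. Genes given as examples beyond these are list members. The alternatives were edgeR, all 27 libraries, a replicate block, no count filter, no independent filtering, scaling to totals, stricter thresholds and libraries left out.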

Additional observations from a re-analysis of the deposited data

Results flagged for a closer look

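The change at 27 °C differed between bent and heart seeds by a test of the difference itself at 1382 loci in the positive and 2188 in the negative direction. Among the loci named by size, the positive log2 interactions were 5.57 at AT4G38080, 5.11 at AT1G74460, 5.08 at PELPK1, 5.03 at AT5G12420, 4.92 at CYP78A9, 4.90 at AT4G17215, 4.85 at ABCG6 and 4.66 at FOLB3. They were 8.39 at MYB9, 7.65 at KIN1, 7.43 at AT3G04170 and 7.25 at AT5G37690, where a group lay near 0 and the fitted size is no bound. Loci with opposite changes had 6.59 (AT2G43670), 3.96 (AT1G02190) and 3.63 (AT5G38865), and the second of these was not called by edgeR (adjusted p = 0.193). The bent rise of AT1G02190 rests on 14 counts at 27 °C and 2 at 25 °C. Its ratio of 7.47 has an exact 95% interval of 1.72 to 67.7. The negative interactions were -6.55 at AT4G11180, -6.49 at AT1G02570, -6.22 at AT1G09550, -5.27 at EPR1, -5.03 at E12A11, -4.68 at AT1G62080, -4.54 at NCED9 and -4.41 at AT5G15180. Near-silent heart groups gave -12.71 at AT1G62070, -12.42 at AT1G62220, -11.31 at RLP55 and -10.67 at AT5G05020. FLA5 (-8.42) and AT2G38890 (-5.68), an uncharacterised locus, fell in bent and rose in heart seeds.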

How the results depend on the processing

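Limits of the comparison are 3 libraries per group, pooled seeds and growth chambers that differed with the temperature. No replication of chambers is described, so temperature and chamber cannot be told apart. A fit of all 27 libraries lowered the negative calls to 1411. An adjusted p under 0.01 left 863 positive calls, and an absolute interaction of at least 1 left 582 positive and 686 negative. Single libraries left out gave 948 to 1329 positive and 1715 to 2202 negative interactions, 1923 to 2732 higher and 2347 to 3349 lower calls in bent seeds, and 1994 to 2825 higher and 1394 to 2420 lower calls in heart seeds. The heart calls lower at 27 °C numbered 1394 when replicate 2 of the 25 °C group was left out and 1427 when replicate 2 of the 27 °C group was. Counts of 0 to 2 called members in the remaining lists also moved by 1 in some of these fits (endoplasmic reticulum, sugar supply, chaperones, suberin, mucilage, oil synthesis and abscisic acid metabolism). With 1 replicate number left out in all 4 groups, positive interactions numbered 482 to 716, negative 823 to 1195, bent calls 1114 to 1489 (higher) and 1071 to 1423 (lower), and heart calls 1204 to 1811 (higher) and 595 to 1190 (lower). Whether equal replicate numbers pair the samples cannot be settled with 3 libraries per group. Correlations of deviations from group means ran from -0.4 to 0.58 for equal numbers and from -0.546 to 0.542 for unequal numbers. A replicate block gave 1157 positive and 1879 negative calls. For 100 named genes, no value changed sign under the alternatives. With 1 library left out, 96 of 1200 values were no longer called, in 16 genes. One replicate number left out took the call from 70 of 300 values in 32 genes, and the other settings took it from 41 of 600 values in 27 genes. The alternative without replicate 3 of bent seeds at 23 °C was chosen after the data were seen.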

Other observations

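Late embryogenesis abundant proteins, hydrophilic proteins that accumulate as seeds dry, did not share the direction of the storage proteins. Of 55 members 35 were tested, and 4 had a positive and 2 a negative interaction, against 6.59% and 10.4% of all loci. The median was -0.02, with 16 values above 0 and 19 below. LEA4-5 had 103, 73.3 and 123 normalised counts in bent seeds at 27 °C, against 44.7, 20.1 and 24.2 in bent seeds at 25 °C, and its heart groups overlapped (interaction 1.88). The dehydrin XERO1 had 75.4, 62.8 and 66.2 in bent seeds at 27 °C, against 122, 151 and 162 in bent seeds at 25 °C (interaction -1.47). The call of LEA4-5 was lost without replicate 1 of heart seeds at 25 °C, and that of AT3G17520 (interaction 1.85) in 7 of 12 fits with 1 library left out. The positive members numbered 2 in place of 4 without replicate 2 of bent seeds at 25 °C, replicate 1 or 3 of bent seeds at 27 °C, or replicate 1 of the 25 °C heart group. Among 8 clade A protein phosphatases tested, HAI1, which restrains abscisic acid signalling, was the only one called (-0.47), against 17% of all loci. However, 2 were positive without replicate 2 of bent seeds at 27 °C and 1 when replicate 2 of the 25 °C heart group was left out.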
